A study of Rattus norvegicus with 9 samples.

Results

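The glucuronosyltransferases and sulfotransferases are the enzymes that attach glucuronic acid or sulfate to steroids, bilirubin, thyroid hormones, phenols and drugs. The genes described here are the protein-coding genes of the deposited rat liver table whose symbols begin with Ugt1, Ugt2, Ugt3 or Sult, which gave 18 genes, 6 Ugt and 12 Sult, of 32883 genes in all and of 22250 protein-coding genes. UGT enzymes sit in the membrane of the endoplasmic reticulum and use UDP-glucuronic acid, whereas SULT enzymes are mostly cytosolic and use the activated sulfate PAPS. In liver both reactions make a lipid-soluble substrate water-soluble, so that it can be exported into bile or blood. The Ugt1 genes share their last exons and differ in their first ones, whereas each Ugt2b gene has its own exons, and the Ugt2 and several Sult genes lie side by side in the genome.

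Liver mRNA was sequenced from 9 male Sprague-Dawley rats, 3 in each of 3 groups. Rats of the normal control group (rats 1, 3 and 12) received a normal diet and no diethylnitrosamine (DEN), a liver carcinogen. DEN model rats (13, 17 and 24) received weekly intraperitoneal injections of 0.01% DEN during the 16 weeks of the study. PZH administration rats (27, 28 and 42) received the same DEN injections and were also given Pien-Tze-Huang (PZH), a traditional Chinese medicine. The comparisons asked which genes differed in DEN-injured liver and which of them differed again when PZH was given. The study had a low-dose and a high-dose PZH group and collected rats at several weeks. The dose of PZH and the week of collection of the sequenced rats are not given in the sources used here, and the age of the rats is not given either. Whether the sequenced PZH administration rats shared a dose, or the rats of any group a week, is therefore not known. Groups followed the letter in each sample's title, because the treatment label reads PZH for the DEN model rats as well as for the PZH administration rats.

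The 9 libraries held 14922973 to 27161496 counts, the deepest being PZH administration rat 27. Levels are given as CPM, read counts scaled to a fixed library size with trimmed mean (TMM) factors, in which 3 counts corresponded to 0.125 to 0.249 CPM. The scaling factors were 0.738 to 0.802 in normal control, 1.21 to 1.57 in DEN model and 0.851 to 0.950 in PZH administration rats. With library totals in place of TMM factors, the log2 fold change (log2FC) of the median gene tested moved to 0.89 in the DEN model against normal control comparison and to -0.67 after PZH, so changes are reported relative to TMM scaling. All 6 hepatocyte markers (Alb, Ttr, Apoa1, Tf, Fgb and Serpina1) were detected in every rat. Their summed level was 150646 to 163161 CPM in normal control, 31975 to 73076 CPM in DEN model and 119893 to 170271 CPM in PZH administration rats. The 5 markers of bile duct and progenitor cells summed to 12.985 to 20.6, 198 to 725 and 75.0 to 86.4 CPM in the same order, and the 5 markers of stellate cells and myofibroblasts to 145 to 240, 841 to 2551 and 463 to 567 CPM. DEN model rat 17 had the highest hepatocyte sum and the lowest bile duct sum of its group. Alb and Tf made up most of each hepatocyte sum, and the 6 markers did not fall alike. In the DEN model against normal control comparison edgeR's adjusted p was under 0.05 for Alb (log2FC -2.09) and Ttr (-3.89). It was not for the others, among them Apoa1 (-0.30) and Fgb (-1.24), whose groups overlapped. The part of these shifts in the results below was not tested, and in bulk liver fewer cells of a type and less RNA per cell cannot be told apart.

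The sequence just upstream of the start site is shown for the 6 genes on which the results turn, namely Sult1e1 and Sult1c3, the sulfotransferase genes with the largest changes, Sult1b1, which lies near Sult1e1, and the 3 Ugt2b genes. RefSeq windows of 250 bases ending at the base before the annotated start, in build GRCr8, were matched by symbol for 16 of the 18 genes, all except Sult4a1 and Ugt3a2. Capitals mark 2 kinds of TATA-like letters, ATAAAAG and, read on either strand like all motifs here, TATAAA.
Sult1e1, chr14:20701230-20701479, plus strand: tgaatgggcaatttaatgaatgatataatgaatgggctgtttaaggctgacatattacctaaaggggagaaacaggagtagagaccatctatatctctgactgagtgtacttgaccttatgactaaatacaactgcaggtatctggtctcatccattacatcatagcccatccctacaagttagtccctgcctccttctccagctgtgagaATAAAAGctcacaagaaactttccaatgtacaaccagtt
Sult1c3, chr9:7594257-7594506, minus strand: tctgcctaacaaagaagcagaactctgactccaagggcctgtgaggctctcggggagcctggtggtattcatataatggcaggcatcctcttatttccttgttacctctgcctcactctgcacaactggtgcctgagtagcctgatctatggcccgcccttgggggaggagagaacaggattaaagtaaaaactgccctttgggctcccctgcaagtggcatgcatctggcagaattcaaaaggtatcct
Sult1b1, chr14:20771667-20771916, plus strand: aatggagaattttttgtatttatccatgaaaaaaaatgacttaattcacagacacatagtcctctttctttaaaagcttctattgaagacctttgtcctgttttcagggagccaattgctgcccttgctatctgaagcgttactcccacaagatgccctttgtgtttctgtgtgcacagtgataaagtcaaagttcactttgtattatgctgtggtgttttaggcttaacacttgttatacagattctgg
Ugt2b35, chr14:21208191-21208440, plus strand: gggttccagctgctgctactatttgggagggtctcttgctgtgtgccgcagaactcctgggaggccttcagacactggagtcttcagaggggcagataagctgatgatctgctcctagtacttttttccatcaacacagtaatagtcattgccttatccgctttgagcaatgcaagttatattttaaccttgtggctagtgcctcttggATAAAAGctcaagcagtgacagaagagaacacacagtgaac
Ugt2b37, chr14:21171886-21172135, plus strand: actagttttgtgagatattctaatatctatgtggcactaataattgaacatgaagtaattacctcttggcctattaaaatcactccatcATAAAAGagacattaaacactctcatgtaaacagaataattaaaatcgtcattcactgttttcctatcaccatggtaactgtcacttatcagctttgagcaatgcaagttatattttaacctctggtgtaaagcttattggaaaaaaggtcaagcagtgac
Ugt2b10, chr14:21462591-21462840, plus strand: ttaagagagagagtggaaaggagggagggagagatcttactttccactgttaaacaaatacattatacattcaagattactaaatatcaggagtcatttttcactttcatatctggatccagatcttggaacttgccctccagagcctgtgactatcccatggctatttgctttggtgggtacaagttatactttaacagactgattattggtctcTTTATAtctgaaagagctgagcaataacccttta
Ugt2b35 and Ugt2b37 shared a run of 31 letters, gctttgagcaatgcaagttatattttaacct, which began 91 and 70 bases before their starts. The longest run common to all 3 Ugt2b windows was 9 letters. ATAAAAG lay 39 to 33 bases before the start of Sult1e1, 41 to 35 before that of Ugt2b35 and 51 to 45 before that of Ugt1a9. In the Ugt2b37 window it lay farther from the start, 161 to 155 bases before it. That is 4 of 16 windows, against 5.17% of all 33469 windows of the same length in the rat table. TATAAA was found in 4 of the 16 windows (12.9% of all), TTCNNNGAA, the letters of a STAT5 site, in those of Sult6b1 and Ugt1a9 (7.67%), GCGTG, the core of a xenobiotic response element, in that of Sult2b1 (25.9%), and TGACNNNGC, the core of an antioxidant response element, in 0 of 16 (10.1%). The ATAAAAG letters were chosen after the windows had been read, and a match describes letters only.

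In DEN model liver 6 of the 9 tested sulfotransferase genes were lower than in normal liver, whereas the glucuronosyltransferase genes were not called in either direction. Of the 14 genes with enough counts to be tested, 6 were lower (Sult1a1, Sult1c2, Sult1c2a, Sult1c3, Sult1e1 and Sult2a6) and 2 were higher (Sult2b1 and Sult5a1) when edgeR's adjusted p was under 0.05. Among all 14255 genes tested, 45.8% were called, 20.5% lower and 25.3% higher. The study's own thresholds (log2FC beyond 2 in size and unadjusted P under 0.001) were passed by 4 of the genes, Sult1c2, Sult1c2a, Sult1c3 and Sult1e1, all lower. Among all genes 12.3% passed them, 3.49% lower and 8.81% higher. The rats of the 2 groups did not overlap in 10 of the 14 genes, against 58.7% of all genes tested. The median log2FC was -2.94 for the 9 tested Sult genes and -0.33 for the 5 tested Ugt genes, beside 0.03 for all genes. The difference between the families was not itself tested. Sult1d1, Sult4a1, Sult6b1 and Ugt3a2 had too few counts to be tested in any comparison.

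Sult1e1, the estrogen sulfotransferase, showed the largest difference of the 18 genes. It was measured at 1172, 1792 and 1570.3 CPM in normal control rats 1, 3 and 12, and at 0.214, 14.97 and 6.14 CPM in DEN model rats 13, 17 and 24. In PZH administration rats 27, 28 and 42 it was at 636, 1187 and 364 CPM. The DEN model rats were far below every other rat, with 5, 301 and 147 counts, and varied 70.0-fold among themselves. PZH administration rat 28 overlapped the normal control range and the other two did not. The log2FC was -7.74 in the DEN model against normal control comparison (standard error, SE, 1.20, adjusted p = 0.00145), a 213-fold lower level. It was -8.90 without DEN model rat 17 and -7.16 without DEN model rat 13, so the size of the fold rests on single rats. Against the DEN model group the PZH administration group was 105-fold higher, with a log2FC of 6.72 (SE 1.23, adjusted p = 0.0143). Without DEN model rat 24 this comparison had a log2FC of 6.62 and an adjusted p of 0.0524, which ended the call, and without DEN model rat 17 the log2FC was 7.85. Against Sult1b1, which lies near it on chromosome 14, Sult1e1 had 259 to 309 counts per 100 Sult1b1 counts in normal control, 0.0632 to 4.16 in DEN model and 40.8 to 168 in PZH administration rats. This ratio is taken within a library and does not depend on scaling between libraries, and its 3 ranges did not overlap.

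**Figure D1:**
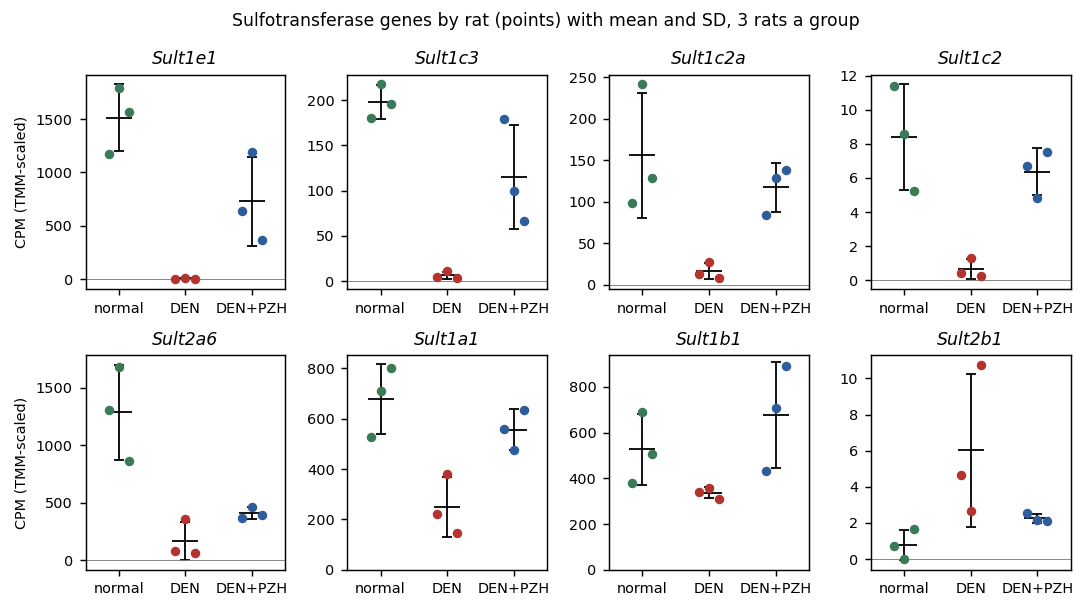
Level of 8 sulfotransferase genes in each rat. The vertical axis of each panel is the level in CPM after TMM scaling, on a linear scale that differs between panels, the horizontal axis gives the group, points are rats, and bars are the mean and SD of 3 rats. Sult1e1, Sult1c3, Sult1c2a and Sult1c2 sit near 0 in DEN model rats and are higher in all PZH administration rats, whereas Sult2b1 is highest in DEN model rats.

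The SULT1C genes, among them enzymes known to sulfonate N-hydroxyarylamines, changed together with Sult1e1 but less. Sult1c3 was at 179.9, 218 and 196 CPM in normal control, 4.66, 11.1 and 3.05 CPM in DEN model and 179 (rat 27), 99.1 (rat 28) and 66.5 CPM (rat 42) in PZH administration rats. All 3 DEN model rats were below all others, and the 3 PZH administration rats were below the normal control rats without overlap. Its log2FC was -4.99 in the DEN model group (SE 0.47, adjusted p = 2e-04) and 4.23 after PZH (SE 0.57, adjusted p = 0.00891), and without DEN model rat 17 these were -5.68 and 4.91. Sult1c2a was at 98.9, 242 and 128 CPM in normal control, 13.2, 27.5 and 8.82 CPM in DEN model and 83.9, 129 and 139 CPM in PZH administration rats. The normal control and PZH administration rats overlapped, and the DEN model rats lay apart from both. The log2FC values of Sult1c2a were -3.25 (SE 0.50, adjusted p = 0.00133; -3.84 without DEN model rat 17) and 2.86 after PZH (SE 0.43, adjusted p = 0.00981). Its annotated span overlaps that of RGD1562392, a symbol that RefSeq now lists as a synonym of Sult1c2a, which had 1387 counts over all rats, so reads may be split between the pair.

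Sult1c2, the least abundant SULT1C gene, was at 11.4, 8.56 and 5.24 CPM in normal control, 0.385, 1.29 and 0.209 CPM in DEN model and 6.71, 4.83 and 7.55 CPM in PZH administration rats. It followed the same order, with the DEN model rats lowest and the other groups overlapping. Its log2FC was -3.75 in the DEN model group (SE 0.62, adjusted p = 0.00189) and 3.39 after PZH (SE 0.61, adjusted p = 0.0137), and the second call was lost without DEN model rat 13 (log2FC 3.13, adjusted p = 0.0599). Without DEN model rat 17 the log2FC values were -4.80 and 4.41. The table also holds 5 genes described as sulfotransferase 1C-like that carry no Sult symbol. RGD1562392, given above as a synonym of Sult1c2a, is among them, so not all 5 are further genes. All 5 were called lower in the DEN model group, with log2FC values from -5.03 to -2.73, where 20.5% of all genes were lower. All 5 were called higher after PZH, from 2.54 to 4.26, where 8.72% of all genes were higher. Near-identical SULT1C copies may share reads, so the split of counts among these genes and Sult1c2, Sult1c2a and Sult1c3 is uncertain.

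Sult2a6, a hydroxysteroid and bile acid sulfotransferase gene, was lower in DEN model liver and was the gene of the 18 that stayed called lower in PZH administration liver. It was at 1309.7, 1683 and 861 CPM in normal control, 77.2, 358 and 67.5 CPM in DEN model and 365, 467 and 394 CPM in PZH administration rats. None of the 3 groups overlapped, although DEN model rat 17 came close to the lowest PZH administration rat. The DEN model difference was a log2FC of -2.94 (SE 0.67, adjusted p = 0.00787), and -4.16 without DEN model rat 17. After PZH the log2FC was 1.32 with an adjusted p of 0.163, and 2.51 with an adjusted p of 0.0011 without DEN model rat 17. Against normal control liver the PZH administration group was 3.17-fold lower, with a log2FC of -1.66 (SE 0.29, adjusted p = 0.0151). That call was lost without normal control rat 1 (adjusted p = 0.0547), without PZH administration rat 28 (adjusted p = 0.0612) and with all 3 groups in one fit (adjusted p = 0.125). The gene's annotated span covers 528 kb of chromosome 1, so its counts may include reads of other Sult2a copies.

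Sult1a1, the main sulfotransferase of small phenols, was at 527, 709 and 800.1 CPM in normal control, 223, 382 and 148 CPM in DEN model and 559.7, 475 and 635 CPM in PZH administration rats. The DEN model rats were below all others, and the other groups overlapped. Its log2FC was -1.44 in the DEN model group (SE 0.37, adjusted p = 0.0138), and -0.63 with an adjusted p of 0.0826 under library totals. After PZH it was 1.18, with an adjusted p of 0.0514 in edgeR and of 0.00491 in DESeq2. Without DEN model rat 13 the call in the DEN model group was lost (adjusted p = 0.0554).

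Sult1b1, which sulfonates thyroid hormones and phenols, had the smallest log2FC values of the tested Sult1 genes in the DEN model against normal control and PZH administration against DEN model comparisons. It was at 381, 691 and 508 CPM in normal control, 338, 359.7 and 312 CPM in DEN model and 434, 706 and 892 CPM in PZH administration rats. The DEN model rats lay just below both other groups, which overlapped. In the DEN model group its log2FC was -0.65 with an adjusted p of 0.0868, and 0.22 under library totals, so its direction depends on the scaling. After PZH it was called higher, with a log2FC of 1.04 (SE 0.30, adjusted p = 0.0437), a call that held in 1 of 6 fits that each left out a rat and that was lost under library totals (log2FC 0.40, adjusted p = 0.302). The 5 rats whose removal lost it were DEN model rats 13, 17 and 24 and PZH administration rats 28 and 42.

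The 2 Sult genes that were higher in DEN model liver were both of low abundance. Sult2b1, the cholesterol sulfotransferase best known from skin, was at 0.7001, 0 and 1.67 CPM in normal control, 4.66, 2.64 and 10.7 CPM in DEN model and 2.55, 2.14 and 2.12 CPM in PZH administration rats. No 2 groups overlapped, and the PZH administration rats lay between the others. Its log2FC was 2.90 in the DEN model group (SE 0.89, adjusted p = 0.0266) and -1.37 after PZH (adjusted p = 0.091). The first call was lost without normal control rat 1 (adjusted p = 0.0918) or DEN model rat 24 (log2FC 2.20, adjusted p = 0.0881), and without normal control rat 12 the log2FC was 4.06. DEN model rat 24, the highest in Sult2b1, also stood apart in the gut epithelium markers Muc13 and Cdx2. They were at 78.2 and 17.6 CPM, against at most 0.0428 and 0.684 CPM in the other 8 rats. The gut marker Vil1 did not set it apart, being at 22.1 CPM in DEN model rat 13 and 22.6 CPM in rat 24. The 4 gut markers summed to 393 CPM in this rat, 15.4 to 36.3 CPM in the other DEN model rats, 187 to 211 CPM in normal control and 28.04 to 118 CPM in PZH administration rats, with Cdh17 at 187 to 210 CPM in normal control and 274 CPM in this rat. Its lymphocyte markers summed to 33.9 CPM, against 2.19 to 11.1 CPM in the other rats. The part of these markers in the Sult2b1 difference was not tested. Sult2b1 overlaps Fam83e, which had 108 counts over all rats. Sult5a1 rested on 2, 0 and 3 counts in normal control, 28, 18 and 11 in DEN model and 31, 9 and 0 in PZH administration rats. It was at least 3.59-fold higher in the DEN model group against the floor of 3 counts per library (adjusted p = 0.0269), and this call held in 2 of 6 fits that each left out a rat, the lost ones being those without normal control rat 1 or 3 or DEN model rat 13 or 17.

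The other Sult genes were close to the limit of detection. Sult1d1, a catecholamine sulfotransferase lying next to Sult1e1, had 5, 6 and 13 counts in normal control rats, 0 in every DEN model rat and 2, 5 and 0 in PZH administration rats. Its level was at least 4.65-fold lower in the DEN model group, against a floor of 3 counts per library, and it was not tested. Sult4a1, known from brain, had at most 5 counts and Sult6b1 at most 4 counts in any rat. Ugt3a2, whose enzyme uses UDP-glucose or UDP-xylose in place of UDP-glucuronic acid, had 0 counts in all 9 rats, which allows up to 0.125 to 0.249 CPM.

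None of the 5 tested Ugt genes was called in the DEN model against normal control comparison by edgeR, also at an unadjusted p under 0.05 (0 of 5), nor by DESeq2 (0 of 5). Ugt2b37, the most abundant Ugt gene by counts, ranged from 1628 to 4172 CPM in normal control, from 862 to 3246 CPM in DEN model and from 4332 to 7777 CPM in PZH administration rats. The normal control and DEN model rats overlapped, and all PZH administration rats were above both. Ugt2b35 was at 712, 928 and 872 CPM in normal control, 687, 658 and 654 CPM in DEN model and 923, 1319.8 and 1274 CPM in PZH administration rats. Its DEN model rats lay below the normal control rats and varied only 1.05-fold. In the DEN model group the log2FC values were -0.61 for Ugt2b37 (SE 0.56, adjusted p = 0.403) and -0.33 for Ugt2b35 (SE 0.25, adjusted p = 0.305). Under library totals they were 0.21 and 0.54, so neither direction held under both scalings.

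Ugt2b10 ranged from 198 to 326 CPM in normal control, from 33.3 to 262 CPM in DEN model and from 254 to 1243 CPM in PZH administration rats. Its groups overlapped in all 3 comparisons, and both treated groups were widely spread, 7.87-fold among DEN model and 4.89-fold among PZH administration rats. The DEN model log2FC was -0.85 (adjusted p = 0.275), and -1.71 with an adjusted p of 0.0258 without DEN model rat 17. Ugt2a3, an enzyme of bile acid glucuronidation, ranged from 28.2 to 105 CPM in normal control, 28.1 to 458 CPM in DEN model and 149 to 591 CPM in PZH administration rats. Its DEN model rats overlapped the normal control rats and varied 16.3-fold, from rat 24 at the bottom to rat 13 at the top. The log2FC was 1.503 (SE 0.84, adjusted p = 0.177), and without DEN model rat 24 it was 2.04 with an adjusted p of 0.0249. The annotated span of Ugt2a3 covers 427 kb and takes in those of Ugt2b35 and Ugt2b37, so counts within the overlap are uncertain.

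Ugt1a9 is the only Ugt1 gene in the table, and its annotated span covers 142 kb of chromosome 9 and overlaps Dnajb3, which had 46 counts over all rats. Because the Ugt1 genes share their last exons, its counts may include other Ugt1a products, the bilirubin enzyme among them. It had the smallest DEN model log2FC of the 14 tested genes, with 854 to 1025 CPM in normal control, 958 to 1075 CPM in DEN model and 1034 to 1579 CPM in PZH administration rats. The DEN model log2FC was 0.09 (SE 0.25, adjusted p = 0.79). Under library totals it was 0.95 with an adjusted p of 0.00596, and Ugt2a3 was 2.38 with an adjusted p of 0.025, so 2 of the 5 Ugt genes were called higher under that scaling.

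**Figure D2:**
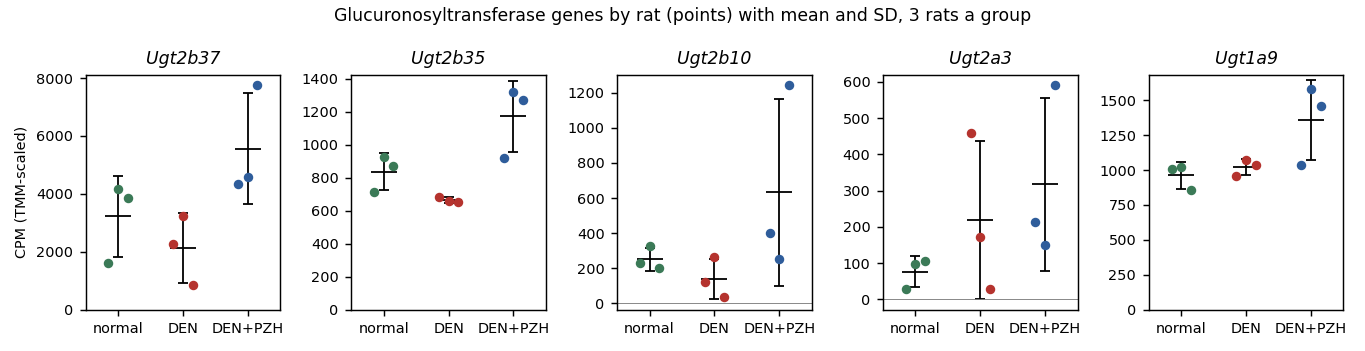
Level of the 5 tested glucuronosyltransferase genes in each rat. The vertical axis of each panel is the level in CPM after TMM scaling, on a linear scale that differs between panels, the horizontal axis gives the group, points are rats, and bars are the mean and SD of 3 rats. The normal control and DEN model rats overlap in every panel but that of Ugt2b35, and for Ugt2b37 all 3 PZH administration rats (4332 to 7777 CPM) lie above the other 6 rats.

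After PZH, 4 of the 6 Sult genes called lower in DEN model liver were called higher, and Sult1a1 and Sult2a6 were not. Of 14 genes tested against the DEN model group, 6 were higher (Sult1b1, Sult1c2, Sult1c2a, Sult1c3, Sult1e1 and Ugt2b35), where 19.1% of 14272 genes were called and 8.72% were called higher. None was called lower by edgeR, against 10.3% of all genes, whereas 1 gene, Sult2b1, was lower at an unadjusted p under 0.05 and in DESeq2. The study's thresholds were passed by 4 genes, again Sult1c2, Sult1c2a, Sult1c3 and Sult1e1, all higher, and by 2.43% of all genes, 1.08% higher and 1.35% lower. In 10 of the 14 genes the rats of both groups did not overlap, against 41.1% of all genes. The median log2FC was 1.32 for the 9 Sult genes and 0.85 for the 5 Ugt genes, beside 0.01 for all genes. This comparison shares its DEN model rats with the one before, so opposite directions in the pair are favoured by the design.

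Among the Ugt genes, Ugt2b35 was called higher after PZH, with a log2FC of 0.85 (SE 0.25) and an adjusted p of 0.0499, just inside the limit. The call was lost without the low-count filter (adjusted p = 0.067), under library totals (log2FC 0.19, adjusted p = 0.578), and without any of DEN model rats 13, 17 and 24 and PZH administration rats 28 and 42. Ugt2b37 had a log2FC of 1.42 (SE 0.52, adjusted p = 0.0911 in edgeR and 0.00829 in DESeq2), and its PZH administration rats were all above its DEN model rats. Ugt2b10 had a log2FC of 2.22 (SE 0.80, adjusted p = 0.0871). Ugt1a9 (0.44, adjusted p = 0.281) and Ugt2a3 (0.57, adjusted p = 0.677) were not called, and under library totals both log2FC values were below 0, at -0.21 and -0.076. Without DEN model rat 17, edgeR called Ugt2b10 (log2FC 3.05, adjusted p = 0.0384), Ugt2b37 (1.85, adjusted p = 0.0338), Sult1a1 (1.60, adjusted p = 0.00684) and Sult2a6 (2.51) higher and Sult2b1 lower (-1.74, adjusted p = 0.0235).

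**Figure D3:**
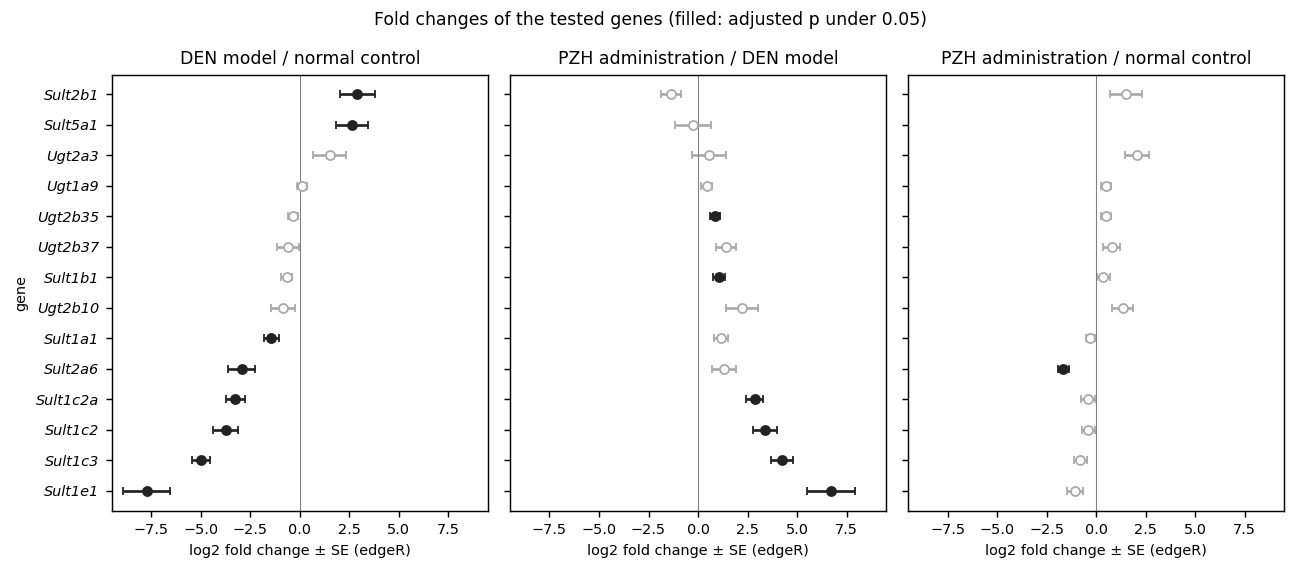
Log2FC of each tested gene in the 3 comparisons, in 1 panel each. The horizontal axis is the log2FC from edgeR under TMM scaling with bars of 1 SE, the vertical axis lists the genes, and filled points passed an adjusted p under 0.05. The Sult genes at the bottom reach -7.74 in DEN model liver and 6.72 after PZH for Sult1e1, and Sult2a6 is the filled point against normal control liver.

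PZH administration liver was also compared with normal control liver. Of 13 genes tested, Sult2a6 was called, lower, where 5.21% of 13348 genes were called and 1.15% were lower. No gene was called higher by edgeR, against 4.07% of all genes, whereas 2 were higher at an unadjusted p under 0.05 (Ugt2a3 and Ugt2b10) and DESeq2 called 1, Ugt2a3. In 6 of the 13 genes the groups did not overlap, against 24.0% of all genes. The study's thresholds were passed by 0 of the 13 genes and by 2.32% of all genes, 2.16% higher and 0.165% lower. A p that missed the limit does not show equal levels. Sult1e1 stood at 48.2% of its normal control mean (log2FC -1.06, SE 0.41, adjusted p = 0.195) and Sult1c3 at 58.0% (-0.80, SE 0.33, adjusted p = 0.233). Sult1c3 was called lower without PZH administration rat 27 (-1.26, adjusted p = 0.0143). The medians were -0.42 for 8 Sult genes and 0.78 for 5 Ugt genes, beside -0.02 for all genes. Ugt2a3 had the highest log2FC of the Ugt genes at 2.04 (SE 0.61, adjusted p = 0.0988 in edgeR and 0.00284 in DESeq2), and all 3 PZH administration rats were above all normal control rats.

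Levels between genes were compared in FPKM, the authors' values per length and library. These values carry no TMM factors, so changes of a gene between groups are to be read from the CPM values above. They also depend on the gene lengths the authors used, which were not checked here. In normal control rat 1 Ugt2b37, with a 159 kb span, had 20930 counts and 169 FPKM. Sult1e1, with a 17.2 kb span, had 15068 counts and 734 FPKM there. The order of genes below therefore holds for FPKM only. In normal control rats Sult1e1 had the highest mean of the 18 genes, at 920.3 ± 163 FPKM (SD, n = 3), followed by Sult1a1 at 432 ± 90.5 FPKM and Ugt2b37 at 325 ± 135 FPKM. The last of these did not differ from Sult1b1 (319 ± 80.7 FPKM) beyond its spread. In DEN model rats Sult1e1 ranked 10 at 7.34 ± 6.98 FPKM. The highest means there, Ugt2b37 (375 ± 176 FPKM), Sult1b1 (372 ± 27.4 FPKM) and Ugt2b35 (357 ± 49.1 FPKM), lay within their spread of each other. In PZH administration rats Ugt2b37 led at 667 ± 258 FPKM, before Sult1e1 at 523 ± 312 FPKM and Sult1b1 at 491 ± 189 FPKM, again within their spread.

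The make-up of the sulfotransferase mRNA differed by group. Sult1e1 made up 44.1% to 46.7% of the summed Sult FPKM in normal control, 0.0353% to 1.67% in DEN model and 16.9% to 44.7% in PZH administration rats. In DEN model rats Sult1b1 or Sult1a1 led, with Sult1b1 at 40.01% to 62.0% of the sum. These shares depend on the gene lengths used for FPKM. In normal control rat 1 Sult2a6, with a 528 kb span, had 16836 counts and 236 FPKM. Sult1e1 had 15068 counts and 734 FPKM in that rat. The summed Sult FPKM was 1662 to 2302 in normal control, 619 to 853 in DEN model and 1287 to 1951 in PZH administration rats. These sums carry no TMM factors. In TMM-scaled CPM the sums were 3682 to 5343, 557 to 1159 and 2268 to 3071 in the same order, so the size of the difference depends on the scaling. For every 100 counts of Ugt genes there were 69.0 to 102 counts of Sult genes in normal control, 14.7 to 21.4 in DEN model and 20.3 to 38.9 in PZH administration rats. Without Sult1e1 these ratios were 42.4 to 69.7, 14.7 to 21.1 and 17.3 to 23.9. Ratios were chosen after the values had been seen and are given as descriptions.

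**Figure D4:**
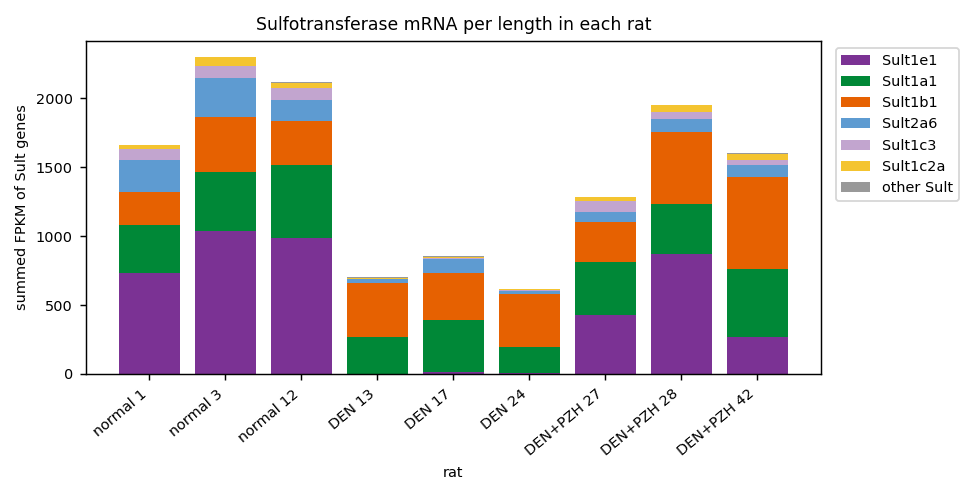
Summed sulfotransferase mRNA in each rat. The vertical axis is the sum of the authors' FPKM over the 12 Sult genes, the horizontal axis lists the 9 rats by group and rat number, and the coloured parts are genes. Sult1e1 fills 44.1% to 46.7% of the normal control bars and is barely visible in the DEN model bars, where Sult1b1 and Sult1a1 make up most of the sum. The sizes of the parts depend on the gene lengths used for FPKM.

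Of the 18 genes, 7 lie within 753 kb of chromosome 14 (positions 22072024 to 22825444 in the file's coordinates, whose build is not given in the sources used here). In order they are Sult1e1, Sult1d1, Sult1b1, Ugt2a3, Ugt2b37, Ugt2b35 and Ugt2b10, and the span of Ugt2a3 takes in those of Ugt2b37 and Ugt2b35. Sult1e1 (22072024 to 22089248) and Sult1b1 (22142364 to 22155231) start 70.3 kb apart. Neighbours in this stretch differed in size of change, with log2FC values in the DEN model group of -7.74 for Sult1e1 and -0.65 for Sult1b1 and between -0.85 and 1.503 for the 4 Ugt2 genes. After PZH they were 6.72, 1.04 and from 0.57 to 2.22, in the same order. The SULT1C genes lie together on chromosome 9 (Sult1c2a from 4152589, Sult1c2 from 4807717 and Sult1c3 from 4930818), away from this cluster.

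**Figure D5:**
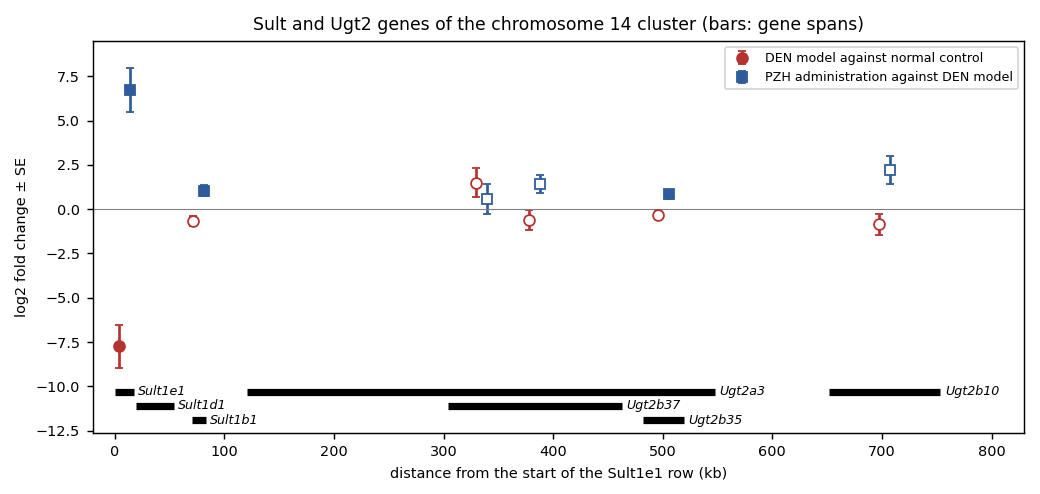
Log2FC along the chromosome 14 cluster. The horizontal axis is the distance in kb from the start of Sult1e1, the vertical axis is the log2FC with bars of 1 SE, circles compare DEN model with normal control and squares PZH administration with DEN model liver (pairs set slightly apart), filled points passed an adjusted p under 0.05, and black bars at the bottom are gene spans. Among the tested genes the large changes sit at Sult1e1, at the left end, and the others lie between -0.85 and 2.22. Sult1d1, next to Sult1e1, had too few counts to be tested and has a span but no point.

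Genes of co-substrate supply, conjugate transport and regulation were examined as lists, to be read beside the 25.3% of all genes called higher and 20.5% called lower in the DEN model group and the 8.72% and 10.3% after PZH. UDP-glucuronic acid is made by Ugdh from UDP-glucose, and Ugdh was higher in all DEN model rats, at 613, 498 and 519.6 CPM against 149, 122 and 120.1 CPM in normal control rats (log2FC 2.06, SE 0.22, adjusted p = 0.000319). Pgm1, which makes glucose 1-phosphate, was lower (-0.64, adjusted p = 0.0295), so 1 of 4 genes of this supply rose and 1 fell, shares near those of all genes. Under library totals 3 rose and 0 fell. After PZH 0 of the 4 were called, 0 at an unadjusted p under 0.05 and 0 in DESeq2. Of 11 genes of sulfate activation and supply, 2 rose in DEN model liver and 6 fell (5 and 4 under library totals). The PAPS synthase gene Papss1 rose (2.71, SE 0.26, adjusted p = 0.000196), whereas Papss2, the main form in liver, fell (-1.02, SE 0.25, adjusted p = 0.01). Cdo1, which starts the oxidation of cysteine towards sulfate, fell (-3.53, adjusted p = 0.00115), as did the sulfate transporter Slc26a1 (-2.91, adjusted p = 0.00168). After PZH 5 of the 11 rose, Cdo1 (2.69) and Slc26a1 (1.89) among them, and Papss1 fell (-1.43, adjusted p = 0.0116). Under library totals 4 rose and 4 fell after PZH. Papss2, and Papss1 in the comparison after PZH, were named after their values had been seen. The median of these 11 genes was -1.02 in DEN model liver and 0.70 after PZH, beside 0.03 and 0.01 for all genes.

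Of 8 transporters of conjugates, 2 exporters rose in DEN model liver, a share near that of all genes, the larger change being that of the basolateral exporter Abcc3 (log2FC 4.94, adjusted p = 1.72e-05). All 4 organic anion uptake genes of the list fell, Slco1a4 (-4.34), Slco1b2 (-3.65) and Slco1a1 (-3.29) foremost. These 4 uptake genes rose after PZH, with log2FC values from 1.73 to 3.93. Sts, the steroid sulfatase that removes sulfate from estrogens, was lower in the DEN model group (-1.53, adjusted p = 0.011) and higher after PZH (1.19, adjusted p = 0.0143), and Arsa was lower (-0.72, adjusted p = 0.0341), 2 of 4 sulfatase genes. Gusb, the lysosomal beta-glucuronidase, was lower in the DEN model group (-0.62, adjusted p = 0.0164) and was not called after PZH (0.42). Under library totals 0 of the sulfatase genes and Gusb were called lower in the DEN model group, and 2 sulfatase genes were higher. After PZH 0 sulfatase genes were called higher and 1 lower under that scaling, so the Sts call was lost. Of 4 genes of heme breakdown to bilirubin, a substrate of the UGT1A enzymes, Hmox2 was lower in the DEN model group (-0.96, adjusted p = 0.00329), whereas under library totals 0 were lower and 2 higher. After PZH 0 of these 4 were called by edgeR, with 1 higher and 1 lower at an unadjusted p under 0.05 and 1 lower in DESeq2.

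Among 12 receptors and factors known to act on UGT and SULT genes, 8 were lower in DEN model liver and 0 were higher by edgeR, 0 at an unadjusted p under 0.05 and 0 in DESeq2. Among the genes lower were Rxra (-1.94), Nr1h4 (-1.88) and Nr1i2 (-1.67), the last being the pregnane X receptor. After PZH 3 were higher, Ppara (1.23, adjusted p = 0.0242), Nr1h4 (1.13, adjusted p = 0.0224) and Hnf4a (1.11, adjusted p = 0.0265). Their median was -1.38 in DEN model liver and 0.95 after PZH. Under library totals the number lower in the DEN model group was 6, with 1 higher, and 0 were called higher after PZH. Of 9 tested genes of other conjugating enzymes of liver, 6 were lower in the DEN model group, Inmt (-7.13), Nnmt (-3.16), Baat (-2.90) and As3mt (-2.26) foremost, and 5 were higher after PZH. Their median was -2.02 and 1.59 in those comparisons.

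Several rat Sult genes are expressed differently in males and females, so sex-patterned liver genes were examined beside them. The 7 tested entries of these genes belong to 6 gene symbols. Of the 7 entries, 6 were lower in the DEN model group (20.5% of all genes), and these 6 were higher after PZH (8.72% of all genes). The symbol with more than 1 entry was among them, so it counts more than once. Among those lower were the male-specific Cyp2c11 (-10.73, adjusted p = 1.79e-05) and the female-predominant Cyp2c7 (-6.32, adjusted p = 0.000645). The entry that was higher in the DEN model group was Cyp2c12, also a female-pattern gene (2.87, adjusted p = 0.00669), named after its values had been seen. It was at 72.9, 31.2 and 109 CPM in normal control, 391, 959.5 and 202 CPM in DEN model and 366, 542 and 792 CPM in PZH administration rats. Both DEN-treated groups lay above the normal control rats and overlapped each other. Whether these genes and the Sult genes changed in the same cells was not tested.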

How the data were processed

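Liver RNA of 9 rats was sequenced on an Illumina NovaSeq instrument. Per the labels and the submitters' processing notes, the authors used fastp, HISAT2 (2.1.0), StringTie (1.3.3b) and edgeR (3.30.3). The program that counted reads, its strand setting and the genome build are not given in the sources used here. The deposited table holds raw read counts per gene and FPKM values, which the authors scaled by gene length and library. Its columns with the authors' own group means and test results were left unused, and 0 columns of other samples were present.

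Raw counts entered the quasi-likelihood test of edgeR (4.0.16, R 4.3.3, limma 3.58.1) after filterByExpr and TMM scaling, with the 6 rats of each comparison and no covariate. P-values were two-sided and Benjamini-Hochberg adjusted over all genes tested, and a gene was called at an adjusted p under 0.05. CPM used TMM factors over all 9 rats. FPKM served for levels between genes, without a test. Folds against a group with at most 3 counts in every library used 3 counts per library as the floor, which covers counting error only. The members and gene lists were chosen with earlier results of these data known. CPM by rat is given for genes called in either DEN model comparison with a mean of at least 1 CPM, other members by ranges, group means or counts, and up to 4 genes per list and comparison by largest log2 fold change. Lists are described by counts and medians, and 1 listed gene, which enters these counts and medians, is not reported by name here.

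On simulated counts for the DEN model against normal control comparison (14249 genes, 200 shifted by 2 on the log2 scale), edgeR recovered 192 (96%) with 7 unchanged genes called, and DESeq2 191 (95.5%) with 21. The simulation gave every gene the same dispersion, shifted as many genes up as down and left low-count genes unshifted. It therefore does not measure recovery for genes as variable as Sult1e1 or as sparse as Sult5a1. Alternatives were DESeq2 (1.42.0), library totals, other filters (none, or 10 counts in every rat), all groups in 1 fit, the study's thresholds and leaving out each rat.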

Additional observations from a re-analysis of the deposited data

How the results depend on the processing

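In the DEN model against normal control comparison the 6 lower genes became 5 to 7 when each rat was left out in turn, and the other settings left that count within 1.5 times. The 2 higher genes became 4 under library totals, 1 without a filter, 0 with at least 10 counts in every rat, 1 with all groups in 1 fit, 0 at the study's thresholds and 0 to 2 when each rat was left out. After PZH the 6 higher genes became 3 under the filter of 10 counts in every rat, which removed Sult1e1 and Sult1c2, and 3 to 8 when each rat was left out, the lowest without DEN model rat 13 or 24 and the highest without DEN model rat 17. The 0 lower genes became 1, Sult2b1, in DESeq2 and under library totals, and 0 to 1 when each rat was left out. Against normal control liver the 0 higher genes became 1 in DESeq2, and the 1 lower gene became 0 with all groups in 1 fit, 0 at the study's thresholds and 0 to 2 when each rat was left out, being 0 without normal control rat 1 or PZH administration rat 28 and 2 without PZH administration rat 27. Under library totals the direction turned for Sult1b1 (0.22), Ugt2b35 (0.54) and Ugt2b37 (0.21) in the DEN model group and for Ugt1a9 (-0.21) and Ugt2a3 (-0.076) after PZH. When each rat was left out, the log2 fold change after PZH ranged from -1.38 to 0.28 for Sult5a1 and from -0.23 to 1.69 for Ugt2a3, and that of Sult1c2a against normal control liver from -0.70 to 0.066. The causes were not tested. Genes with a few counts, such as Sult5a1, are limited by depth. No paired analysis was possible because the groups share no rat numbers.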
